A study of Mus musculus with 27 samples.

Results

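Genes of the histone lysine methyltransferase families, together with the chromatin remodelling ATPase Ep400, were followed in the cortex of 5xFAD mice after microinjection of the retromer-stabilizing compounds R55 and R33. The 9 genes are listed in the deposited table as kmt2a, kmt2b, kmt2c, kmt2d, kmt2e, setd1a, setd1b, setd2 and ep400, among 26264 gene symbols. They were chosen by symbol with earlier results of the same libraries known, the values of R55 and R33 against vehicle among them. Those contrasts are therefore given as a description for the 9 genes, without p, and where a count of genes past the threshold is printed it stands beside that of all genes and nothing is read from it. All 9 passed the filter of a mean of at least 1 FPKM (fragments scaled to transcript length and library total) over the libraries, as did 12976 genes in all.

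Methylation of lysine 4 of histone H3 marks promoters and enhancers in use, and in mammals it is laid down by a family of complexes named after yeast COMPASS. Each is built around a different catalytic subunit and shares a core of Wdr5, Rbbp5, Ash2l and Dpy30. Setd1a and Setd1b provide the bulk of promoter trimethylation, Kmt2a and Kmt2b act with menin at selected promoters, and Kmt2c and Kmt2d monomethylate enhancers. Setd2 trimethylates lysine 36 of histone H3 behind elongating RNA polymerase II. Ep400 is the large ATPase of the TIP60-EP400 complex, which exchanges histone variants and acetylates nucleosomes. In mice, neurons of the forebrain need Kmt2a and Kmt2b for memory, and variants that inactivate several of these genes in humans cause disorders of brain development.

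RNA was measured in a small block of cortex from each hemisphere of female 5xFAD mice aged 16 weeks, 24 h after microinjection into the cortex of 1 hemisphere. The 5xFAD line is a transgenic model of Alzheimer's disease, and no mice without its transgenes were part of the comparison. Injections held vehicle (4 mice, labelled J, M, L and AH), R33 (5 mice, labelled K, AE, O, N and AD) or R55 (5 mice, labelled P, AA, Q, R and AB). Both compounds were given from a 10 mM solution, and vehicle was the same solvent mixture without compound. The contralateral hemisphere was sampled in 13 of the 14 mice, the exception being R33 mouse AE, which made 27 libraries of 15932197 to 38077027 counted fragments (median 27441308).

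Transcript length is not independent of the choice of the 9 genes, since the R55 and R33 values known beforehand followed it in part. Features of the 9 genes are given here as a description. In the GRCm39 gene models 4 of them lie on chromosome 5, with Kmt2e at 23639418 to 23709233, Kmt2c at 25476796 to 25703810, Ep400 at 110812201 to 110918583 and Setd1b at 123280256 to 123306692. Chromosome 7 holds Kmt2b (30268283 to 30288414) and Setd1a (127375842 to 127399294), chromosome 9 holds Kmt2a (44714652 to 44792621) and Setd2 (110358262 to 110447701), and Kmt2d lies on chromosome 15 (98729550 to 98769085). The genes have many exons, from 17 in Setd1b to 59 in Kmt2c, against a median of 9 over the 12164 tested genes matched to a coding gene model. Their coding sequences are long. They run from 5148 bp in Setd1a to 16764 bp in Kmt2d, against a median of 1398 bp.

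The transcript length behind the FPKM, recovered from the values, was also long. It was 19827 bp for Kmt2d, 16819 bp for Kmt2c and 16463 bp for Kmt2a, at percentiles 99.9, 99.8 and 99.8 of tested genes, and 10798 bp for Ep400 (98.2). The shortest were Kmt2e at 7227 bp and Setd1a at 5931 bp, at percentiles 91.6 and 85, and the median over tested genes was 3149 bp. Most members share exonic bases with other genes. The unlisted Gm42585 shares 4020 with Kmt2c and Gm48702 shares 751 with Kmt2a, both on the opposite strand. Srpk2, at 40.1 FPKM, shares 1035 with Kmt2e on the opposite strand, and the protein-coding model Gm49388, which the table does not list, shares 3523 with Setd1a on the same strand. The libraries were stranded, but whether strand was used in counting was not given in the sources used here, so whether values of these members hold fragments of such neighbours was not tested.

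RefSeq promoters (250 bases before to 50 bases after the start, build GRCm38.p6) were matched for 6 of the 9 genes. All 6 were rich in CG dinucleotides, with 27 in Kmt2d, 33 in Ep400, 35 in Setd1a, 36 in Kmt2a, 38 in Setd2 and 56 in Kmt2c, against a median of 7 over 32851 promoters. The GC box (GGGCGG on either strand) was found in 5 of the 6, with 12 matches in Kmt2c, 7 in Setd2, 5 in Kmt2a, 4 in Kmt2d, 2 in Ep400 and 0 in Setd1a, and it occurs in 35.7% of all promoters. None of the 6 held the TATA box (TATAAA, 13.6% of promoters), the CCAAT box (CCAAT, 37.4%), the cAMP response element (TGACGTCA, 1.79%), the E box (CACGTG, 7.15%) or the ETS core (CCGGAAG, 8.86%), each searched on both strands. These matches describe letters in a window and not bound sites. The promoters of Kmt2a (chr9:44881240-44881539, minus strand), Setd2 (chr9:110532347-110532646, plus strand) and Ep400 (chr5:110770668-110770967, minus strand) are printed 5′ to 3′ with GC boxes in capitals, as 1 gene each of the H3K4, H3K36 and remodelling roles whose R55 mice were all below the vehicle mice.
Kmt2a: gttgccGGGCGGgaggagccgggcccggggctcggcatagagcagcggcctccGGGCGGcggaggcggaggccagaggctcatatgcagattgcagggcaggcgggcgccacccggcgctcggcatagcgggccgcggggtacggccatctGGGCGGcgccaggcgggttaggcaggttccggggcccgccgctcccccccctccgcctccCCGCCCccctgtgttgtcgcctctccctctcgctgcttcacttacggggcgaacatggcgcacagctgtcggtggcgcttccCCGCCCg
Setd2: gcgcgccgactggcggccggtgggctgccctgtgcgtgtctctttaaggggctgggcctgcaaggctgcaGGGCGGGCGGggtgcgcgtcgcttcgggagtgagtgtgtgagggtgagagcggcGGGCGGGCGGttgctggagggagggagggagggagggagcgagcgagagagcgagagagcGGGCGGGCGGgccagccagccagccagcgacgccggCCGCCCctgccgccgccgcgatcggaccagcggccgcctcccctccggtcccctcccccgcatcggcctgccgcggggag
Ep400: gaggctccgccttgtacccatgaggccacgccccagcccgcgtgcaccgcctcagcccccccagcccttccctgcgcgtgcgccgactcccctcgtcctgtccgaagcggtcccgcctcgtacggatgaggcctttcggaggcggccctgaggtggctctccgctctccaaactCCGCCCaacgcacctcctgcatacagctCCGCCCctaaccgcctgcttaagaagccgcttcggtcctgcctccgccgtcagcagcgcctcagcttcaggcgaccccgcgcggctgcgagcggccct

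Cortical levels of the 9 genes were moderate and spanned a narrow range. On the length-scaled FPKM, Kmt2e was highest with 16.5 ± 2.29 (SD, n = 27 libraries), followed by Setd1a with 10.3 ± 1.03 and Setd2 with 8.57 ± 1.18. Ep400 (7.32 ± 1.15), Setd1b (6.88 ± 0.902), Kmt2a (6.75 ± 1.25) and Kmt2b (6.57 ± 0.696) could not be ordered beyond their spread, since Ep400 exceeded Setd1b in 18 of 27 libraries, Setd1b exceeded Kmt2a in 18 of 27 libraries and Kmt2a exceeded Kmt2b in 15 of 27. Kmt2d (4.58 ± 0.791) and Kmt2c (3.89 ± 0.781) were lowest. Kmt2e was above Setd1a, Setd2 above Ep400 and Kmt2b above Kmt2d in all 27 libraries. The fewest fragments of a member in a library were 1033, for Setd1b.

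Libraries standing apart touched all 9 genes. The contralateral library of R55 mouse Q and the injected library of R33 mouse AD had the lowest members, with mean deviations from the gene means of -0.43 and -0.41 on the log2 scale. All 9 genes lay below their means in both. The lowest of the 27 libraries was Q contralateral for 6 genes and AD injected for 3. The contralateral libraries of AD (-0.19) and AB (-0.19) also had all 9 genes below their means, as did the injected library of R55 mouse R (-0.10). The first 4 of these had low values of long genes as a whole, and R injected hardly so (-0.04). Over the 1299 longest genes (6835 bp or more) the median deviation was -0.29 in Q contralateral, -0.37 in AD injected, -0.14 in AD contralateral and -0.13 in AB contralateral, while the 1298 shortest genes (1195.5 bp or less) stood at 0.44 in Q contralateral and 0.54 in AD injected. Once each library's trend on length was removed, the members' mean deviation was -0.09 in Q contralateral and 0.01 in AD injected. Without these 2 libraries, a setting added after seeing the data, the median log2 fold change of the 9 genes against vehicle was -0.24 for R55 and -0.18 for R33, beside -0.26 and -0.24 with them. The cause of the length trend was not tested.

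**Figure D1:**
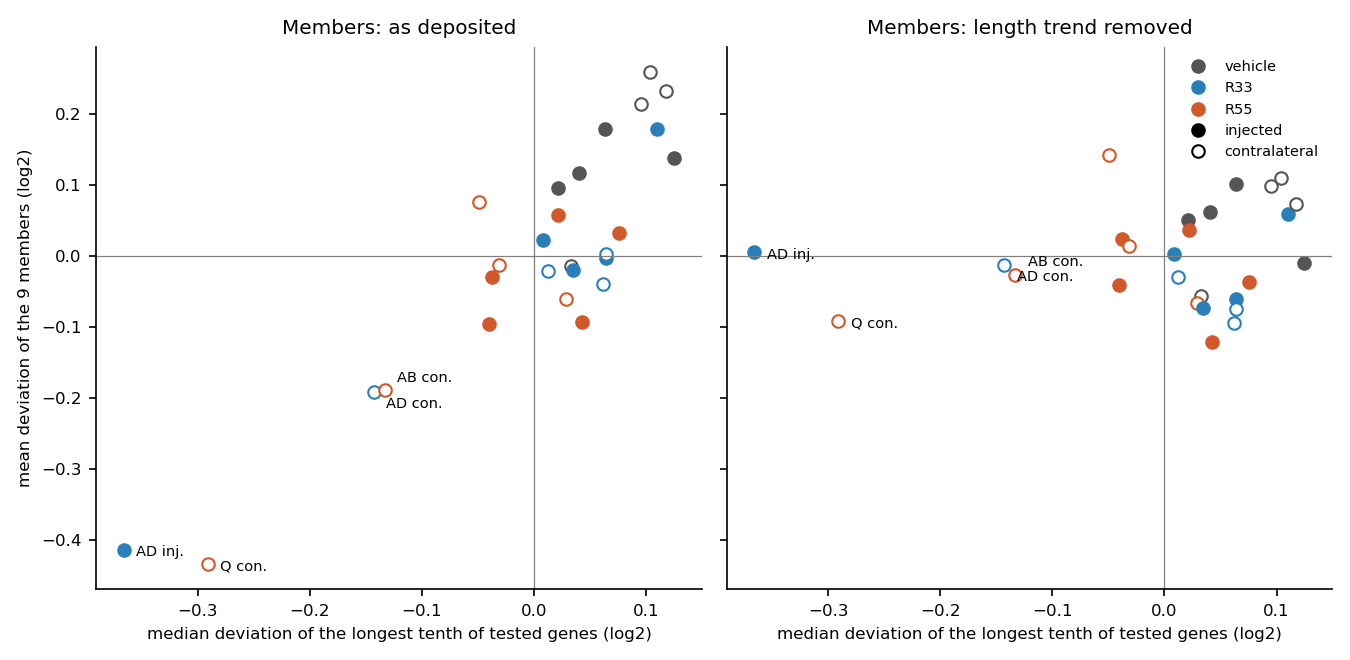
Mean deviation of the 9 genes from their means over 27 libraries (vertical axis, log2 of FPKM + 1) against the median deviation of the 1299 longest tested genes (horizontal axis, log2), as deposited on the left and with the length trend removed on the right, 1 point per library, filled for injected and open for contralateral. Q contralateral and AD injected sit at the lower left as deposited (-0.43 and -0.41) and within the spread of the others once the trend is removed (-0.09 and 0.01).

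Of the pair that acts with menin, Kmt2a had every R55 mouse below every vehicle mouse, as had 1.41% of tested genes. For Kmt2b the R55 and vehicle mice overlapped. Whether the pair differed in this was not tested. Kmt2a was at 8.28, 6.98, 7.26 and 7.75 FPKM in the injected and at 6.92, 8.19, 8.76 and 9.59 FPKM in the contralateral hemisphere of vehicle mice J, M, L and AH. In R55 mice P, AA, Q, R and AB it was at 5.87, 6.75, 5.96, 5.28 and 7.44 FPKM in the injected and at 5.92, 7.52, 4.03, 6.0 and 5.74 FPKM in the contralateral hemisphere. In R33 mice it was at 7.16, 7.44, 7.74, 6.46 and 4.72 FPKM in the injected hemisphere of K, AE, O, N and AD and at 6.63, 5.80, 6.63 and 5.49 FPKM in the contralateral hemisphere of K, O, N and AD. Single libraries overlapped, yet the mean of the hemispheres lay lower in every R55 mouse (5.00 to 7.13) than in every vehicle mouse (7.58 to 8.67). The R33 mice (5.10 to 7.44) were also lower, but their highest is AE, which has the injected hemisphere alone and lies above the injected libraries of vehicle mice M and L. Kmt2b, the closest relative of Kmt2a, had 7.09 ± 0.567 FPKM (SD, n = 4 mice) after vehicle, 6.23 ± 0.538 (n = 5) after R33 and 6.46 ± 0.336 (n = 5) after R55, and the mice overlapped in both comparisons.

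The enhancer enzymes Kmt2c and Kmt2d were the lowest of the 9 genes. For Kmt2c every R55 mouse was below every vehicle mouse, as for 1.41% of tested genes, and for Kmt2d the mice overlapped. Whether the 2 genes differed in this was not tested. Kmt2c was at 5.44, 4.28, 4.30 and 4.31 FPKM in the injected and at 4.35, 5.15, 4.17 and 4.92 FPKM in the contralateral hemisphere of vehicle mice J, M, L and AH. In R55 mice P, AA, Q, R and AB it was at 3.30, 3.64, 3.73, 3.46 and 3.70 FPKM in the injected and at 3.48, 3.84, 2.34, 3.86 and 2.69 FPKM in the contralateral hemisphere. In R33 mice it was at 4.13, 4.51, 4.98, 4.30 and 2.49 FPKM in the injected hemisphere of K, AE, O, N and AD and at 3.67, 3.43, 3.89 and 2.73 FPKM in the contralateral hemisphere of K, O, N and AD. All 10 R55 libraries were below all 8 vehicle libraries, as for 0.0694% of tested genes, whereas the R33 libraries reached into the vehicle range. Kmt2d had 5.37 ± 0.610 FPKM (SD, n = 4 mice) after vehicle, 4.28 ± 0.481 (n = 5) after R33 and 4.28 ± 0.582 (n = 5) after R55. Vehicle mouse J, at 4.65 FPKM, was below the highest mouse of each drug group (4.99 after R33 and 4.86 after R55).

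Of the bulk promoter enzymes, Setd1a varied least of the 9 genes across libraries, with a coefficient of variation of 10%. It had 10.8 ± 1.05 FPKM (SD, n = 4 mice) after vehicle, 9.92 ± 1.01 (n = 5) after R33 and 10.1 ± 0.369 (n = 5) after R55. Setd1b had 7.37 ± 0.817 FPKM (n = 4) after vehicle, 6.76 ± 0.605 (n = 5) after R33 and 6.64 ± 0.668 (n = 5) after R55. For both genes the mice of the 3 treatments overlapped. Kmt2e, a SET-domain protein regarded as catalytically inactive that reads methylated H3K4, had 17.8 ± 1.32 FPKM (n = 4) after vehicle, 16 ± 2.34 (n = 5) after R33 and 16 ± 1.31 (n = 5) after R55, again with overlap. Its low values came from single libraries, 10.5 FPKM in AD injected and 10.3 FPKM in Q contralateral, with every other library at 13.8 FPKM or above.

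Setd2, the H3K36 trimethylating enzyme, was lower in all R55 mice than in all vehicle mice, as were 1.41% of tested genes. It was at 10.3, 9.75, 9.82 and 9.24 FPKM in the injected and at 8.04, 10.3, 10.4 and 10.2 FPKM in the contralateral hemisphere of vehicle mice J, M, L and AH. In R55 mice P, AA, Q, R and AB it was at 8.39, 7.93, 9.17, 7.65 and 8.38 FPKM in the injected and at 8.71, 7.85, 6.68, 8.09 and 6.99 FPKM in the contralateral hemisphere. In R33 mice it was at 8.05, 7.81, 9.77, 8.82 and 5.68 FPKM in the injected hemisphere of K, AE, O, N and AD and at 8.39, 9.17, 8.45 and 7.48 FPKM in the contralateral hemisphere of K, O, N and AD. The injected hemispheres of vehicle and R55 mice did not overlap (lowest vehicle 9.24, highest R55 9.17). The share of tested genes with this was not counted, and nothing is read from it. The contralateral library of vehicle mouse J was below 5 of the 10 R55 libraries, and R33 mouse O (9.47 as the mean of its hemispheres) was above vehicle mouse J (9.15).

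Ep400 had the smallest SD of the 9 genes between the means of the vehicle mice (0.181 FPKM). It was at 9.08, 8.18, 7.97 and 8.04 FPKM in the injected and at 7.93, 8.27, 9.0 and 9.29 FPKM in the contralateral hemisphere of vehicle mice J, M, L and AH. In R55 mice P, AA, Q, R and AB it was at 6.80, 6.80, 7.59, 6.55 and 7.20 FPKM in the injected and at 6.96, 7.01, 5.01, 7.32 and 6.11 FPKM in the contralateral hemisphere. In R33 mice it was at 6.78, 7.04, 8.55, 7.85 and 4.57 FPKM in the injected hemisphere of K, AE, O, N and AD and at 6.90, 6.98, 8.20 and 5.72 FPKM in the contralateral hemisphere of K, O, N and AD. All 10 R55 libraries were below all 8 vehicle libraries, as for 0.0694% of tested genes. R33 overlapped by library, but the mean of each R33 mouse (5.14 to 8.03) was below that of each vehicle mouse (8.23 to 8.66). That held for 0.416% of tested genes, with AE by its injected library alone.

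**Figure D2:**
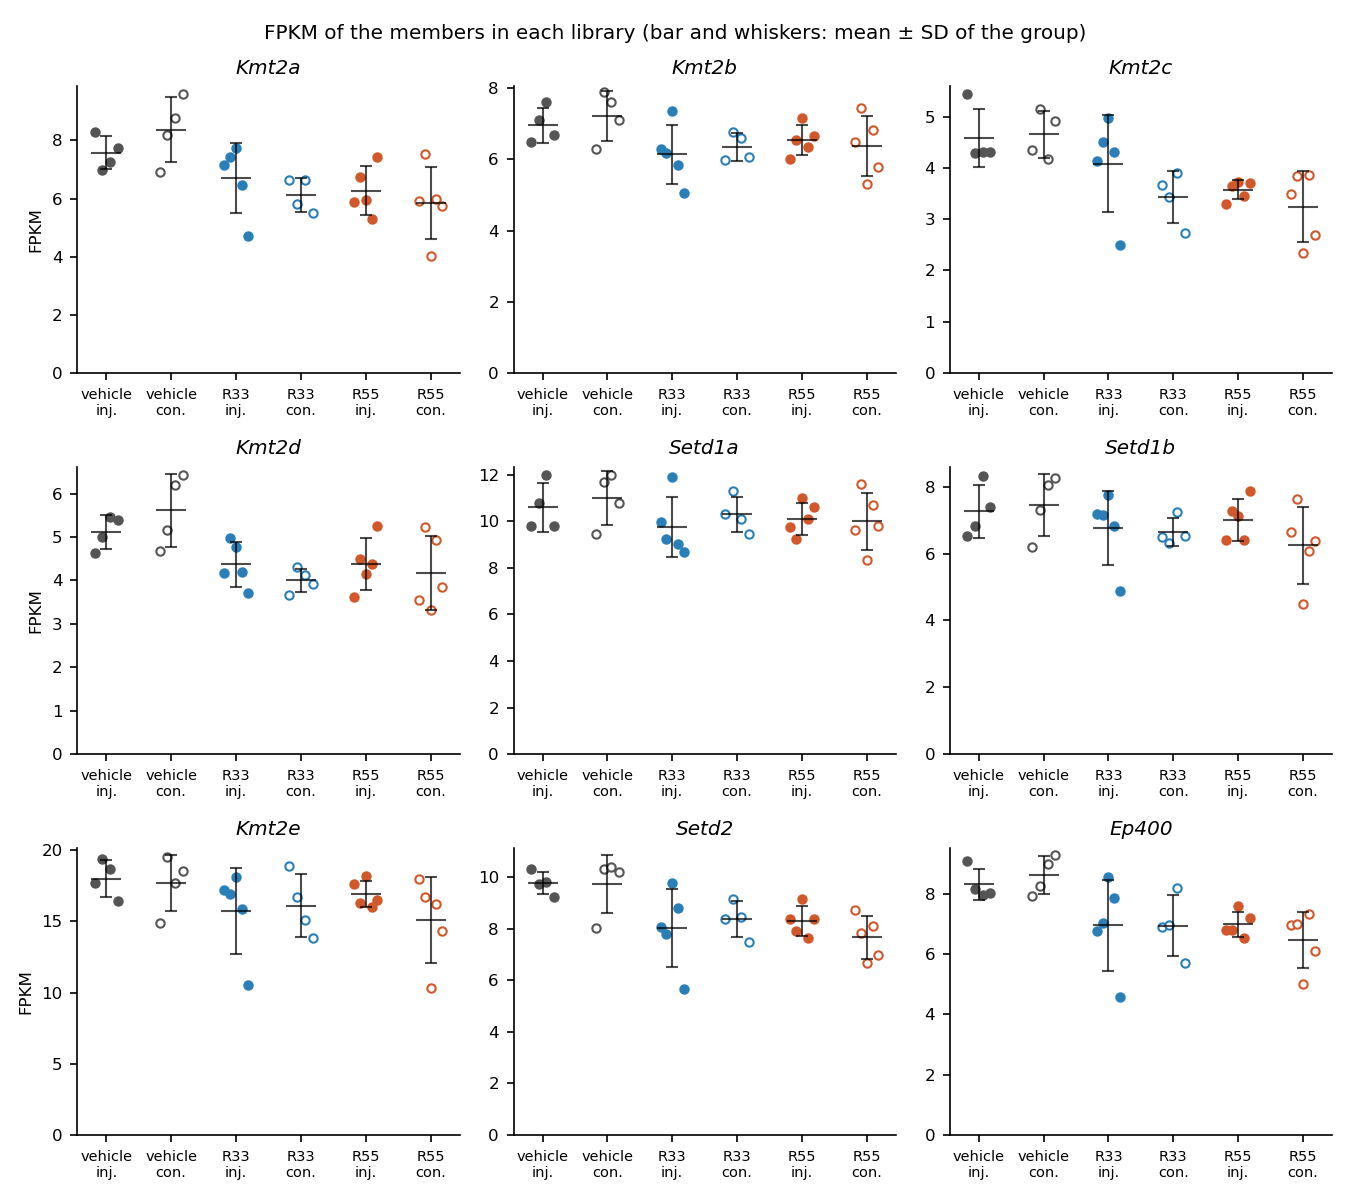
FPKM of each of the 9 genes (vertical axes, from 0) in the vehicle, R33 and R55 groups of the injected (inj., filled) and contralateral (con., open) hemisphere, 1 point per library with the group mean and SD. Kmt2c and Ep400 show all 10 R55 libraries below all 8 vehicle libraries, as do 0.0694% of tested genes, and Setd1a and Kmt2b show overlapping groups.

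The comparison of R55 with vehicle took both hemispheres together, in a limma model with treatment and hemisphere as factors. All 9 genes had a log2 fold change below 0 (on the log2(FPKM + 1) scale), as did 39.8% of the tested genes. It was -0.36 for Kmt2c (SE 0.09), -0.35 for Kmt2a (SE 0.09), -0.30 for Ep400 (SE 0.08), -0.28 for Kmt2d (SE 0.08) and -0.26 for Setd2 (SE 0.07). The others were between -0.16 for Kmt2e and -0.09 for Setd1a. These SE take the hemispheres of a mouse as separate libraries. With the mouse as a random replicate block the SE were larger, at 0.11 for Kmt2c and Kmt2a, 0.10 for Ep400 and 0.09 for Kmt2d and Setd2. Leaving out 1 mouse, Setd1a ran from -0.14 (without J) to -0.04 (without L) and Setd1b from -0.20 (without J) to -0.09 (without L). The median of the 9 was -0.26, beside 0.03 over all tested genes. Every R55 mouse was below every vehicle mouse for 4 of the 9 genes (Kmt2a, Kmt2c, Setd2 and Ep400), beside 1.41% of tested genes, and by library for 2 of the 9, beside 0.0694%. At an adjusted p under 0.05 limma called 0 of the 9 genes and 0.00771% of those tested, which is 1 gene, Ryr2, named here after its values were seen; with the mouse as a random replicate block it called 0. Without R33 mouse AD, whose libraries entered only the shared estimate of spread, limma called 3 of the 9 genes (Kmt2c, Setd2 and Ep400) beside 50 of all tested genes (0.385%). Since the choice of the 9 genes drew on these values, nothing further is read from the counts.

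R33 against vehicle gave values near those of R55. Both used the same 4 vehicle mice as the reference, which by itself makes such values alike, so nothing is read from the nearness. The log2 fold change was -0.29 for Kmt2d (SE 0.08), -0.27 for Kmt2a (SE 0.09), -0.27 for Ep400 (SE 0.08), -0.25 for Kmt2c (SE 0.09) and -0.24 for Setd2 (SE 0.07), and it was between -0.17 for Kmt2e and -0.10 for Setd1a for the others. The SE again take hemispheres as separate libraries, and with the mouse as a random replicate block they were 0.11 for Kmt2a and Kmt2c. All 9 were below 0, beside 42.5% of tested genes, with a median of -0.24 beside 0.02. The mice did not overlap for 2 of the 9 genes, Kmt2a and Ep400, beside 0.416% of tested genes (with AE by its injected library alone, which overlaps injected vehicle libraries for Kmt2a), and by library for 0 of the 9, beside 0.00771%. Limma called 0 of the 9 and 0% of all genes at an adjusted p under 0.05, and 762 genes had an unadjusted p under 0.05. R33 leaned on mouse AD. Without it the median of the 9 was -0.14, the log2 fold change of Kmt2e went from -0.17 to -0.07, and that of Ep400 from -0.27 to -0.17.

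The lower values followed transcript length in part. Over the 1299 longest genes the median log2 fold change was -0.10 after R55 and -0.09 after R33, and over the 1298 shortest it was 0.10 and 0.09. With the length trend of each library removed, the median of the 9 genes went from -0.26 to -0.08 after R55 and from -0.24 to -0.08 after R33. Kmt2d, the longest member, was then at 0.02 (SE 0.08) after R55, a change of sign, Kmt2b at -0.01 (SE 0.05) and Kmt2a at -0.10 (SE 0.06). Kmt2c, the farthest from 0 as deposited, went from -0.36 to -0.09 (SE 0.05). Kmt2d, Kmt2c and Kmt2a lie at percentiles 99.9, 99.8 and 99.8 of length, and the fit of the trend at that end was not checked separately. Other long genes then lay on both sides of 0 after R55, with Nsd3 (13244 bp) at 0.13 (SE 0.04) and Trrap (12479 bp) at -0.16 (SE 0.05). Setd2 went from -0.26 to -0.16 (SE 0.04) after R55 and from -0.24 to -0.15 (SE 0.04) after R33, and Ep400 from -0.30 to -0.13 (SE 0.04) and from -0.27 to -0.14 (SE 0.04). All these SE take the hemispheres of a mouse as separate libraries. What the length trend stands for was not tested, and in bulk tissue fewer cells of a type and less RNA per cell cannot be told apart.

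**Figure D3:**
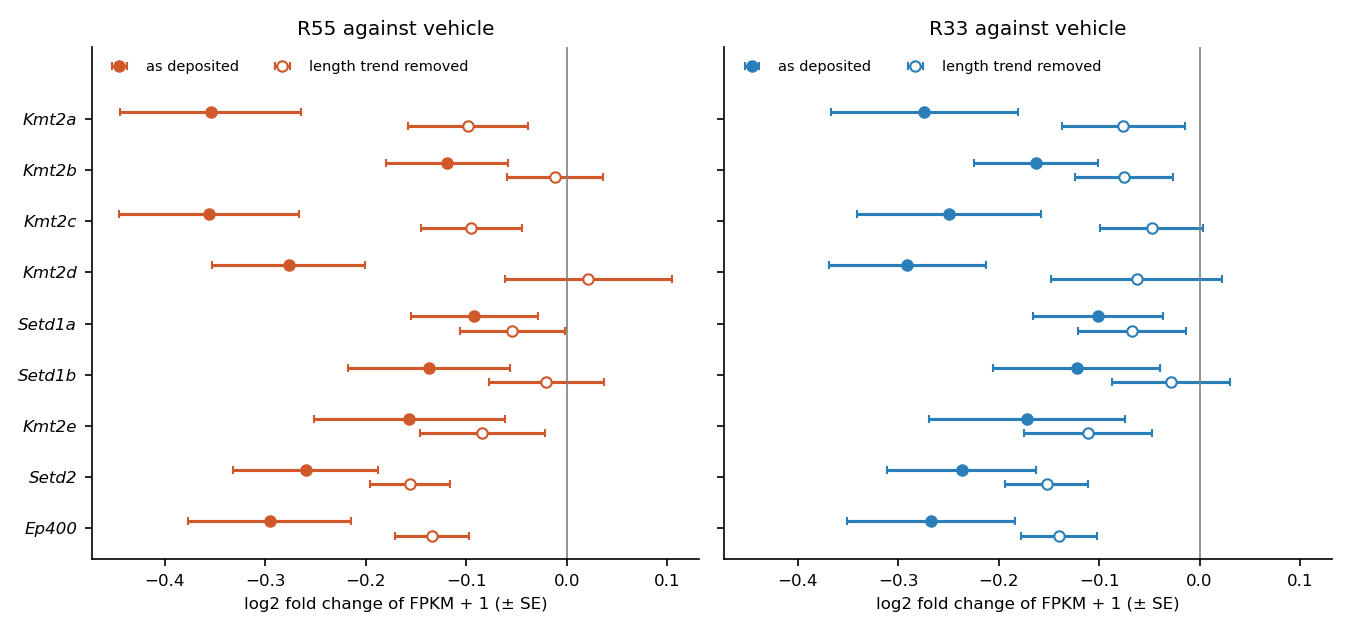
Log2 fold change (horizontal axis, FPKM + 1, bars ± SE) of each of the 9 genes after R55 (left) and R33 (right) against vehicle, filled as deposited and open with the length trend removed. The SE take the hemispheres of a mouse as separate libraries. Filled points lie left of 0 for all 9 genes, and open points lie nearer to 0, with Setd2 and Ep400 the farthest of them after both compounds (-0.16 and -0.13 after R55).

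**Figure D4:**
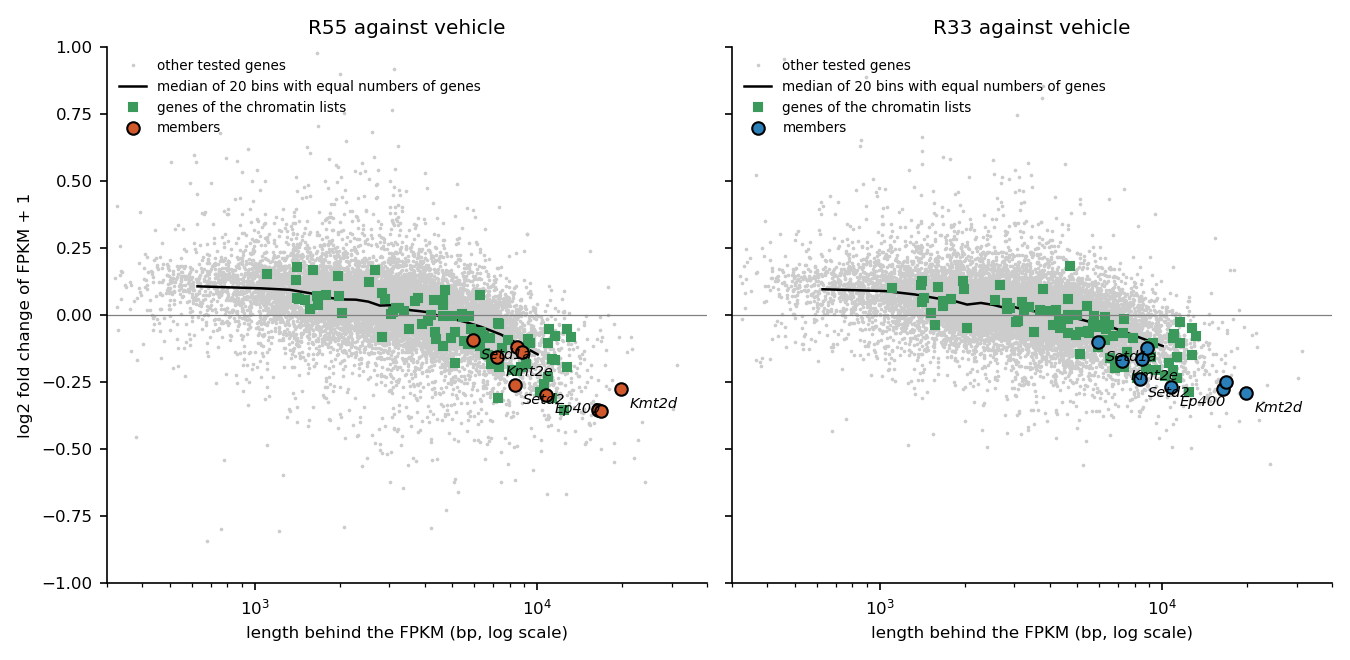
Log2 fold change (vertical axis) against the length behind the FPKM (horizontal axis, bp, log scale) for tested genes in grey, genes of 8 chromatin lists as green squares and the 9 members as circles, after R55 (left) and R33 (right), with the median of 20 bins of equal gene number as a line. The line slopes down with length, the members lie toward its right end, and 99 and 101 genes fall outside the axes.

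The values can be split by hemisphere and by mouse labels of 1 letter or 2, whose meaning is not given. These splits use the same libraries that the choice of genes drew on and add no independent evidence. Within the injected hemisphere all 9 genes were lower after R55 (median -0.19) and after R33 (median -0.17), and within the contralateral hemisphere the medians were -0.31 and -0.19, again with all 9 lower. Among the 1-letter mice the median of the 9 differences was -0.24 for R55 and -0.14 for R33, with 3 mice on each side. Among the 2-letter mice it was -0.28 for R55 and -0.33 for R33, with 2 mice against vehicle mouse AH alone, and Setd1a was barely below 0 for R55.

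R55 and R33 were also compared with each other at the same concentration and time. This difference is made of the values that the choice of genes drew on, so its sizes and intervals are a description and do not show that the compounds act alike. The log2 fold change of R55 against R33 was between -0.11 for Kmt2c (95% interval -0.28 to 0.07) and 0.04 for Kmt2b (-0.08 to 0.16), with a median of -0.01 beside 0.00 over all tested genes. The interval held 0 for all 9 genes. It takes the hemispheres of a mouse as separate libraries, and with the mouse as a random replicate block it still held 0 and was wider, reaching -0.32 for Kmt2c and 0.24 for Kmt2e. The values leaned on R33 mouse AD. Without it the median was -0.08, with Kmt2c at -0.22, Kmt2a at -0.16 and Ep400 at -0.13. Without R33 mouse O the median was 0.03, a change of sign, with Kmt2c at -0.07. Limma called 0 of the 9 and 0% of all genes, and 149 genes had an unadjusted p under 0.05.

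The hemisphere contrast compared the 2 sides of the same mice, and no member passed the test. Earlier results of these libraries were known when the genes were chosen, so its p are given as a description. The log2 difference of injected against contralateral was between -0.03 for Setd1a (SE 0.05) and 0.10 for Kmt2c (SE 0.07), the adjusted p in limma was 1 for all 9, and 0% of tested genes were called, while 450 had an unadjusted p under 0.05. With each mouse as its own control the range was -0.02 for Setd1a to 0.09 for Kmt2c, and the adjusted p ran from 0.902 for Kmt2c to 0.989 for Kmt2d. Kmt2c was higher in the injected hemisphere in 7 of 13 mice and Ep400 in 4 of 13. The members tended to share a direction within a mouse. All 9 were higher on the injected side in mice Q, O and AB, and 0 of 9 in mice M, AH and AD. In these mice the 1299 longest genes moved the same way. Their median deviation, injected then contralateral, was 0.08 and -0.29 in Q, 0.11 and 0.01 in O, and 0.02 and -0.13 in AB. It was 0.04 and 0.10 in M, 0.02 and 0.10 in AH, and -0.37 and -0.14 in AD. In P and AA it was slightly higher on the injected side, with 2 and 1 of the 9 members higher. A direction of the members apart from long genes was not tested.

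**Figure D5:**
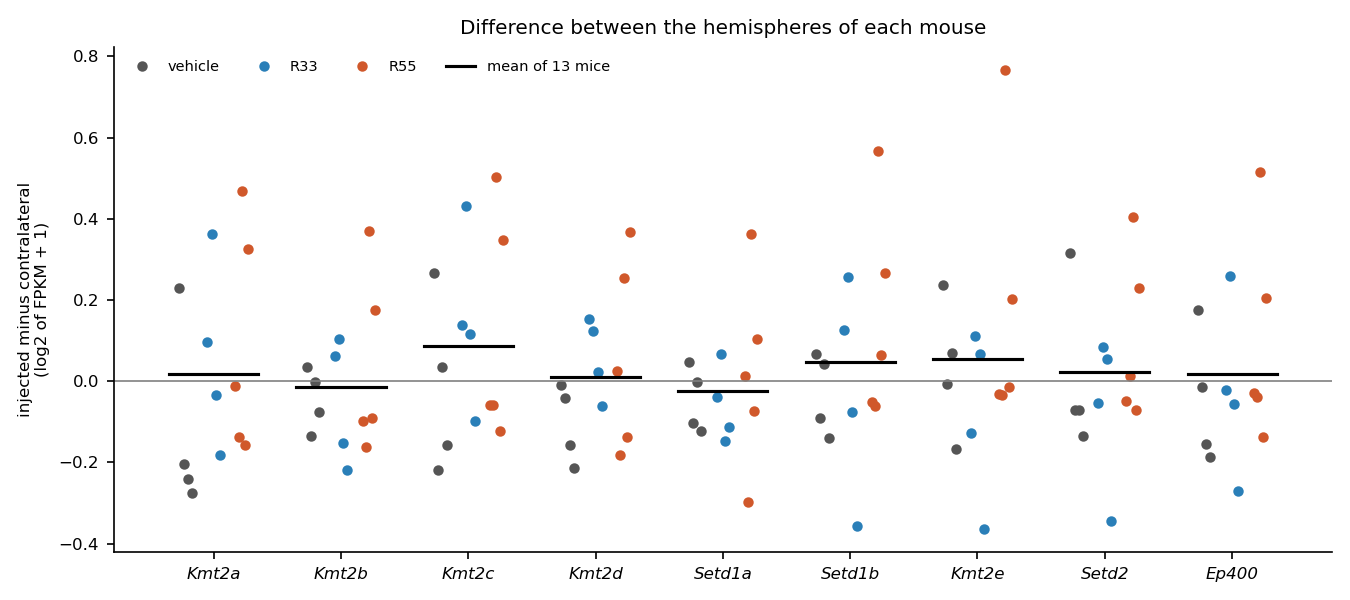
Difference of injected minus contralateral (vertical axis, log2 of FPKM + 1) for the 9 genes in each of 13 mice, coloured by treatment, with a line at the mean of the mice. The points scatter on both sides of 0 for every gene, with means from -0.02 for Setd1a to 0.09 for Kmt2c and R55 mouse Q as the highest point of Kmt2e at 0.77.

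The dependence of the difference from vehicle on the hemisphere was fitted as an interaction. It is made of values that the choice of genes drew on, so its sizes are a description and add no independent evidence. For R55 the term was above 0 for all 9 genes, from 0.07 for Setd1a to 0.22 for Kmt2a (median 0.14, beside -0.03 over all genes), which means a smaller distance from vehicle on the injected side. Much of this came from R55 mouse Q, without which the median was 0.045 and Kmt2e (-0.0024) and Setd1a (-0.0187) were below 0. In limma 0% of tested genes were called, and 239 had an unadjusted p under 0.05. With the length trend removed the median was -0.02. For R33 the term was between -0.08 for Kmt2e and 0.22 for Kmt2a (median 0.03). Limma again called 0% of tested genes, and 49 had an unadjusted p under 0.05. These designs hold 4 or 5 mice a group, and the intervals were wide (-0.15 to 0.59 for Kmt2a after R55).

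Partners of the 9 genes were read from 8 lists of 86 genes, of which 84 were tested. Limma called 0 of them at an adjusted p under 0.05 in any of the 6 comparisons, and for R55 against vehicle 17 of the 84 had an unadjusted p under 0.05, beside 1096 of the 12976 tested genes. After R55, 1 of the 4 genes of the shared COMPASS core was below 0, from -0.05 for Ash2l (SE 0.06) to 0.15 for Dpy30 (SE 0.10), with a median of 0.06, and these genes are shorter (median 3214 bp) than the members (8858 bp). Subunits specific to single COMPASS branches had 5 of 11 genes below 0 (median 0.00), with Hcfc1, a scaffold of the Setd1 and Kmt2a and Kmt2b complexes, at -0.20 (SE 0.08) and Pagr1a, a partner of Kmt2c and Kmt2d, at 0.18 (SE 0.07). The enzymes that remove H3K4 methylation had 4 of 5 genes below 0 (median -0.05), from Kdm5b at -0.12 (SE 0.07) to Kdm1a at 0.01 (SE 0.05).

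Other H3K36 methyltransferases and the H3K36 demethylases, 5 of each, had 9 of 10 genes below 0 after R55 (median -0.08), from Ash1l at -0.31 (SE 0.12) to Smyd2 at 0.17 (SE 0.08). A further list of histone lysine methyltransferases had 9 of 13 tested genes below 0 (median -0.03), from Setd5, a SET-domain protein, at -0.14 (SE 0.07) to Ezh2, the H3K27 methyltransferase, at 0.17 (SE 0.09). Among the partners of Ep400, 5 of 17 were below 0 (median 0.04). Their lowest was Trrap, the very large scaffold protein of the complex, at -0.35 (SE 0.08, adjusted p = 0.131 in limma), and their highest Actl6a, an actin-related subunit, at 0.15 (SE 0.07). Trrap, at 12479 bp, is also much longer than Actl6a, at 1969 bp. With the length trend removed Trrap was at -0.16 (SE 0.05) and Actl6a at 0.08 (SE 0.06) after R55.

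Among 16 other remodelling ATPases, 14 were below 0 after R55 (median -0.16, smallest adjusted p = 0.536 in limma), from the NuRD ATPase Chd3 at -0.31 (SE 0.11) to Smarca2 at 0.07 (SE 0.06), and 15 of 16 after R33 (median -0.13). With the length trend removed 9 of the 16 were below 0 after R55 and 12 after R33. Histone acetyltransferases had 5 of 8 genes below 0 (median -0.10), from Ep300 at -0.19 (SE 0.10) to Kat2b at 0.10 (SE 0.10). With the length trend removed the list medians drew together, at 0.03 for the COMPASS core, 0.01 for the list of H3K36 enzymes, -0.02 for the Ep400 partners, -0.02 for the remodelling ATPases and -0.04 for the acetyltransferases, beside -0.08 for the 9 members.

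The 9 genes went up and down together across libraries. The correlation of each with the mean of the other 8 over 27 libraries was between 0.728 for Setd1a and 0.915 for Ep400, and with the length trend removed between 0.236 for Kmt2e and 0.698 for Kmt2b. These libraries share mice and treatments, so the values are descriptions. The tested genes most like the mean of the 9 were Nfat5 (r = 0.962), Prrc2c (0.940), Ino80d (0.935), Bptf (0.933) and Zfp142 (0.932), with lengths from 6483 bp for Zfp142 to 13529 bp for Ino80d. With the length trend removed they were Zfp142 (0.797), Lypla2 (0.793), Zfp687 (0.792), Numa1 (0.775) and Nfat5 (0.774), so that Zfp142 and Nfat5 stood in both sets and Lypla2, at 1593 bp, was shorter than the median tested gene.

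Cell type markers were read beside these values to check the tissue. Neuronal markers were abundant in every library (6 genes, led by Snap25 at 1663 FPKM on average), as cortex should show, and their summed FPKM was 2632 ± 377 (SD, n = 4 mice) after vehicle, 2745 ± 268 (n = 5) after R33 and 2805 ± 162 (n = 5) after R55. After R55, 3 of 6 neuronal, 0 of 5 astrocyte, 0 of 5 oligodendrocyte and 1 of 5 microglial markers were below 0, while 2 of 2 oligodendrocyte precursor, 4 of 4 endothelial and 2 of 3 mural markers were. After R33 the counts were 2 of 6 neuronal, 1 of 5 astrocyte, 0 of 5 oligodendrocyte (median 0.29), 2 of 5 microglial, 2 of 2 precursor (median -0.25), 4 of 4 endothelial and 3 of 3 mural markers (median -0.21). Endothelial markers, led by Cldn5 at 27.9 FPKM, summed to 56.7 ± 15.8 (n = 4) after vehicle, 47.8 ± 20.1 (n = 5) after R33 and 53.6 ± 25.0 (n = 5) after R55, with overlapping mice. They split by label. The sum was 24.2 to 33.5 in all 5 mice with 2 letters and 52.6 to 84.1 in all 9 mice with 1 letter, and vehicle has 1 mouse with 2 letters against 2 for each compound. Among mice with 1 letter it was 64.4 after vehicle, 61.8 after R33 and 70.1 after R55. Precursor markers, led by Pdgfra at 6.61 FPKM, summed to 10.1 ± 1.39, 8.66 ± 1.93 and 9.29 ± 0.521, and their lowest library was AD injected (4.37). No marker was called by limma in the drug or hemisphere contrasts. The part of these cells in the members' values was not tested.

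Further lists bore on dissection and blood. Striatal markers (4 genes, led by Ppp1r1b) and choroid plexus markers (3 genes, led by Ttr) were highest in the injected library of R33 mouse N, with summed FPKM of 197.6 and 1636, where the members' mean deviation was -0.02. By treatment the striatal sum was 52.4 ± 25.0 (SD, n = 4 mice) after vehicle, 62.2 ± 34.0 (n = 5) after R33 and 41.6 ± 7.19 (n = 5) after R55, with overlapping mice. The vehicle value rested on L injected at 142.8, without which it was 39.1, and R33 without N injected was 46.8. The choroid plexus sum was 167.8 ± 267.4, 388.6 ± 432.8 and 33.5 ± 42.9. Here the vehicle value rested on J contralateral at 1120, without which it was 29.1, and R33 without N injected was 226. By gene, 4 of 4 striatal and 2 of 3 choroid plexus markers were below 0 after R55 (medians -0.29 and -0.40). After R33, 0 of 4 and 0 of 3 were (medians 0.20 and 0.75). Of the red blood cell list the 4 haemoglobin genes were listed at 0 in every library, and Alas2 was at 1.64 ± 0.285 FPKM after vehicle, 2.88 ± 1.76 after R33 and 3.08 ± 1.43 after R55, highest in AD injected at 8.17 FPKM, with overlapping mice. Among mice with 1 letter Alas2 was at 1.61 after vehicle, 1.71 after R33 and 2.4 after R55. Among mice with 2 letters it was at 1.75, 4.63 and 4.09. Nuclear-retained RNAs (4 genes, led by Meg3) summed to 160.8 ± 32.9 after vehicle, 141.3 ± 26.6 after R33 and 151.6 ± 14.7 after R55. Their part in the members' values was not tested.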

How the data were processed

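The authors aligned paired-end reads of stranded mRNA libraries to GRCm39 with HISAT2 and deposited FPKM per gene symbol; the counting tool was not given in the sources used here. Each nonzero value was a whole number of fragments to within 0.01, which gave fragments and gene lengths. The table holds 5 libraries without a sample label, which were not used. The members and lists were chosen with earlier results of these data known. Genes averaging 1 FPKM or more were fitted as log2(FPKM + 1) in limma 3.58.1 (R 4.3.3) with treatment and hemisphere, or 6 group means for interactions, with Benjamini-Hochberg adjustment over 12976 genes. This main fit has no mouse term, so all SE printed from it take the hemispheres of a mouse as separate libraries. A lowess of each library's deviations on log2 length (span 0.3) was removed as an alternative. In each list the genes with the lowest and highest value after R55 are named. Hemispheres pair by mouse (same animal), and deviations of pairs correlated at 0.394 on average, from -0.0787 to 0.648, against -0.106 between mice. Scripts were tested on simulated data. Alternatives were median-of-ratios scaling, no filter, pseudocount 0.1, voom on recovered fragments, label series, mouse as replicate block, single hemispheres and leaving out each mouse.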

Additional observations from a re-analysis of the deposited data

Results flagged for a closer look

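In 54 sets of 4 or 5 libraries (9 genes in 6 groups), 5 held a library far from the rest, judged by its gap to the nearest library as a share of the range, where chance gives about 1 in 20. Kmt2c in the injected hemisphere of vehicle mice was highest in mouse J, with a share of 0.971. Setd2 in the contralateral hemisphere of vehicle mice was lowest in the same mouse J, with a share of 0.954. In the injected hemisphere of R33 mice, AD was lowest for Kmt2c (0.717), Kmt2e (0.751) and Setd1b (0.722). The cause of these distances was not tested.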

How the results depend on the processing

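R55 against vehicle called 1 gene as reported. It called 0 with no filter on low values, size factors by median of ratios, the label series as a covariate, the length trend removed, the mouse as a random replicate block, 1 value per mouse, the injected or the contralateral hemisphere alone, and, added after seeing the data, the length trend removed together with the replicate block. It called 12 with the 2 treatments alone and 4 without the libraries Q contralateral and AD injected, a setting also added after seeing the data. Leaving out each mouse gave 0 to 50 genes. The count was 50 without AD, 4 without AH, 3 without J and 0 without K, AE, M, P, O, R, N, L or AB. R33 against vehicle called 1 gene with no filter on low values and 0 otherwise. R55 against R33 called 0 to 2 genes over the mice left out, with 2 without AD. Beyond the R55 count, the mouse as a replicate block changed no other call, with counts of 0 for the hemisphere contrast and both interactions. The causes of these changes were not tested.

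For the members, 255 of 270 values of R55 against vehicle moved by less than the spread between mice, 12 moved more, all with the length trend removed, and 3 (Kmt2c, Setd2 and Ep400) passed the threshold without AD, beside 0.385% of tested genes, in a fit that takes hemispheres as separate libraries, from which nothing is read. For R33, 262 of 270 moved less and 8 more. Signs changed in 2 values for R55, both Kmt2d with the length trend removed, and in 0 for R33. For R55 by hemisphere, 16 of 230 values moved more than that spread and 16 changed sign; for R33 by hemisphere 21 of 230, for R55 against R33 37 of 270 and for the hemisphere contrast 15 of 230 changed sign, none moving more than the spread. The groups hold 4 or 5 mice and 1 time point, so later changes and small differences are beyond these data.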
